A study of Homo sapiens with 6 samples.

Results

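The AP-1 transcription factor family was followed across 3 groups of U2OS 2-6-3 cells by RNA sequencing. The members were chosen by name, with earlier results of these data known. They are FOS, FOSB, FOSL1, FOSL2, JUN, JUNB, JUND, ATF3, BATF3 and MAFF. For each gene the deposited RefSeq entry with the most reads on a primary chromosome was used. All 10 members were found among 26850 genes so represented, and all 10 were tested in each of the 3 comparisons. U2OS 2-6-3 is a derivative of a human osteosarcoma line with an integrated reporter array that holds tet operators. The sample group (n = 2) was transfected with mCherry-MCP, CIBN-TetR and PHR-YFP-VP16, plasmids of a light-controlled system in which a VP16 activator is brought to the tet operators. The mock group (n = 2) received TetR-RFP and YFP with the same transfection reagent, Roche Xtreme gene. The untransfected group (n = 2) had neither plasmid nor reagent, so plasmid and reagent cannot be told apart in a comparison with it. Every culture grew in medium with serum free of doxycycline and was lit with white light overnight, and no dark group was analysed here. Transfection was transient, and the share of cells that took up plasmid is not given in the labels.

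AP-1 is a dimer of basic leucine zipper (bZIP) proteins that binds short DNA elements in promoters and enhancers. JUN, JUNB and JUND can pair with each other or with a FOS class protein (FOS, FOSB, FOSL1 or FOSL2), whereas FOS class proteins need a JUN class partner to bind DNA well. ATF3 and BATF3 are relatives that dimerize with JUN class proteins, and MAFF is a small MAF protein without a transactivation domain that pairs with CNC class factors. FOS, FOSB, JUN, JUNB and ATF3 are textbook early response genes, induced within minutes of growth factor or stress signals, while FOSL1 is known as a later and longer lasting component. MAFF and BATF3 are often listed beside AP-1 rather than within it.

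Each group had 2 libraries, called a for the deeper and b for the shallower, whose whole read counts were recovered from the deposited tables. Reads summed over transcript entries were 50105854 and 9579278 for the sample libraries, 54177551 and 44594507 for the mock libraries, and 53596406 and 51146190 for the untransfected libraries. Sample library b was thus the shallowest. Over 12577 genes the log2 difference between the libraries of a pair had an SD of 0.41 in the sample pair, 0.21 in the mock pair and 0.17 in the untransfected pair. Whether the replicates came from separate cultures is not stated in the labels, and p-values here cover only the differences between these libraries, which may be technical. Summed normalized counts of 9 osteoblast and mesenchymal markers ran from 67679 to 87148 in sample, 68441 to 74564 in mock and 77913 to 81308 in untransfected libraries. VIM, SPARC and COL1A1 made up most of these sums, whereas IBSP had 0 reads in every library and SP7 at most 0.65 normalized counts. RUNX2, which drives osteoblast fate, averaged 112 in sample, 65.3 in mock and 396 in untransfected cells. The alkaline phosphatase ALPL averaged 597, 816 and 62.8 in the same groups. Epithelial markers (4 genes) summed to 119 to 151 in sample, 119 to 173 in mock and 555 to 611 in untransfected libraries, most of the last from KRT5. The 3 endothelial markers summed to 20.6 to 25.03 in sample, 15.8 to 23.4 in mock and 131 to 148 in untransfected libraries, the last nearly all from VWF. In sample library b PECAM1 had 12.4 and VWF 8.24 normalized counts. The 3 blood markers summed to 65.9 to 107 in sample, 9.27 to 17.7 in mock and 14.3 to 14.9 in untransfected libraries, the first from HBB, and CD3E had 0 reads in every library. The epithelial and endothelial sums were lower in both transfected groups, the grouping along which AP-1 members were called, and their part in those results was not tested. The blood sum was higher in the sample libraries than in the mock and untransfected libraries, and the osteoblast and mesenchymal sums of the sample libraries enclosed those of the untransfected ones.

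In sample against untransfected cells 5 members were higher, FOSL1, JUNB, ATF3, BATF3 and MAFF, and 3 were lower, FOS, FOSL2 and JUND. In mock against untransfected cells, a comparison that shares the untransfected libraries, these 5 were likewise called higher and these 3 lower. JUN and FOSB passed in neither comparison. A member was called where the adjusted p of the authors' deposited DESeq2 table was under 0.05. By the same threshold 37.3% of 15565 tested genes were called in sample against untransfected cells, with 20.2% higher and 17.1% lower. In mock against untransfected cells 50.9% of 17091 tested genes were called, with 27.5% higher and 23.4% lower. A count of 8 called of 10 members (80%) therefore stands beside a background in which a large share of all genes was called. Of the 10 members 6 were called with a deposited log2 fold change of at least 1 in either direction in each comparison, beside 11.9% of tested genes in sample and 15.7% in mock against untransfected cells. The median absolute log2 fold change was 1.08 for the members and 0.37 for all tested genes in sample against untransfected cells, and 1.14 against 0.42 in mock against untransfected cells. All libraries of a transfected group lay on the same side of both untransfected libraries for 5 members above and 5 below in sample cells, and for 5 above and 4 below in mock cells. This is the usual case here, since 74.5% of 14891 genes were so separated in sample against untransfected cells (37.6% higher, 36.8% lower) and 82.5% in mock against untransfected cells (42.3% higher, 40.2% lower). In bulk RNA, fewer cells that express a gene and less of its RNA per cell cannot be told apart.

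**Figure D1:**
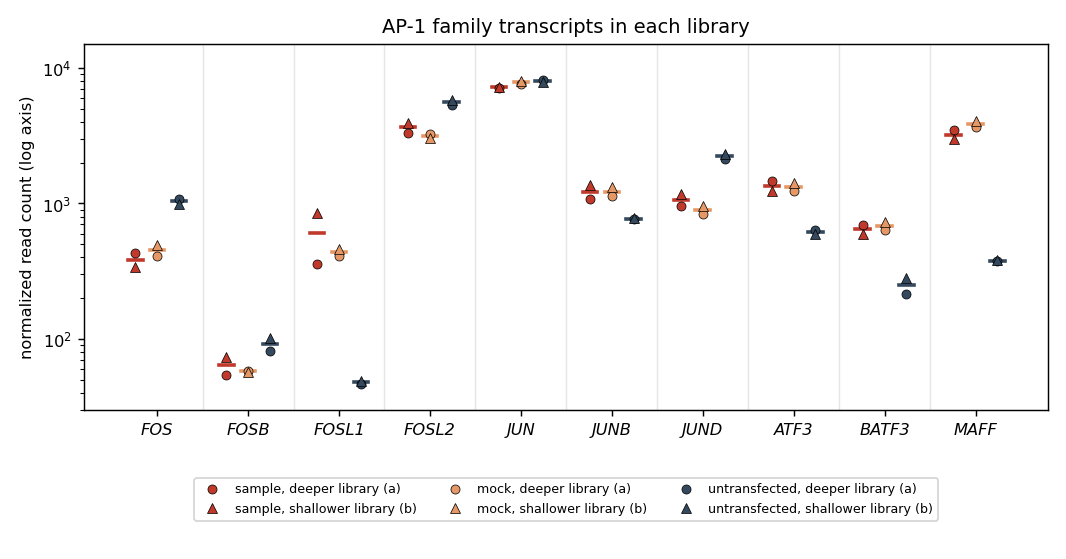
Normalized read counts (log axis) of the 10 AP-1 family genes in each of 6 libraries, with circles for the deeper and triangles for the shallower library of a group and bars for group means. MAFF and FOSL1 lie about an order of magnitude higher in sample and mock than in untransfected cells, JUN lies level, and the FOSL1 libraries of the sample group stand apart at 361 and 852.

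Promoters are shown for the 4 members that bracket the result: MAFF, with the largest rise in mock cells, JUND and FOS, with the largest falls, and JUN, with no call. Each sequence is the 250 bases before a RefSeq gene start in GRCh38.p14, read 5′ to 3′ on the gene's strand, in which capitals mark TGACG on either strand, alone or as the palindrome TGACGTCA. The lines give MAFF at chr22:38201744-38201993 on the plus strand, JUND at chr19:18281623-18281872 on the minus strand, FOS at chr14:75278578-75278827 on the plus strand and JUN at chr1:58784048-58784297 on the minus strand.
MAFF: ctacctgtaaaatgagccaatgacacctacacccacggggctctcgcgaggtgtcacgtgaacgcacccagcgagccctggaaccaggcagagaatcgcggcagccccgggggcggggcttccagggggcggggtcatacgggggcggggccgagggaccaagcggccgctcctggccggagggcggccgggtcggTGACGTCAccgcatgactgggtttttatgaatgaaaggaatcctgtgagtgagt
JUND: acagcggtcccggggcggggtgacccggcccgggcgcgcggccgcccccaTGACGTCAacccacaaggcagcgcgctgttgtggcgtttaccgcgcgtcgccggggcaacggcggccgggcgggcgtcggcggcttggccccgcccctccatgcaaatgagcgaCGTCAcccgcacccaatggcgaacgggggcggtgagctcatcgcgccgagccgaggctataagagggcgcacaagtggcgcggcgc
FOS: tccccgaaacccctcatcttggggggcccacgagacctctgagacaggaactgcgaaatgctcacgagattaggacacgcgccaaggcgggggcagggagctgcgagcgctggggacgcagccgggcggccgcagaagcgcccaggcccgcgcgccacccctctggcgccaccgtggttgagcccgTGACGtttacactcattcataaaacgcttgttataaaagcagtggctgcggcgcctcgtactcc
JUN: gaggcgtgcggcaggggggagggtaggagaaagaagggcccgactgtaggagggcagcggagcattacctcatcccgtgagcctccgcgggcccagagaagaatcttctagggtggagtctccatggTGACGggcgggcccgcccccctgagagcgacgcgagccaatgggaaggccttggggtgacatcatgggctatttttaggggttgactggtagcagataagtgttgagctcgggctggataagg
The palindrome TGACGTCA, known as the cyclic AMP response element, was found in MAFF at 54 to 47 bases and in JUND at 200 to 193 bases before the start, so a gene called higher and a gene called lower both hold it. Over 35116 windows of this length from all genes 1.65% hold it. Among tested genes with a window the share was higher. In sample against untransfected cells it was 4.62% of genes called higher, 2.57% called lower and 3.06% not called. In mock against untransfected cells it was 4.49%, 2.07% and 2.96%. The shorter TGACG occurs in FOS at 64 to 60 bases and in JUN at 123 to 119 bases before the start. RefSeq windows were matched for 8 of 10 members, FOSL1 and BATF3 having none in the table, and gave 10 windows in all. TGACG was in 7 of these 10 member windows, each of a different gene, beside 21.2% of all windows. Those windows include genes not tested here, and the share among tested genes, given below, was higher. ATF3 was the matched member without it in any window. The ATF3 windows precede RefSeq starts at 212565407 and 212615018, whereas the ATF3 entry used here starts at 212608628. The bases just before the start of that entry were thus not searched, and whether they hold TGACG was not tested. The classical AP-1 element TGANTCA (N is any base), searched on both strands, was in no member window and in 6.57% of all windows. Longer variants other than TGACGTCA were not searched. TGACATCA, for example, is in the JUN sequence above and in an ATF3 window, so member windows may hold such variants. The CArG box bound by SRF (CC, then 6 of A or T, then GG) was in no member window and in 1.16% of all windows. Bases farther than 250 before a start were not searched, so these matches cannot show whether a gene lacks an element there. The MAFF, JUND, FOS and JUN transcript entries in the deposited tables start 62, 34, 50 and 66 bases upstream of these RefSeq starts. The MAFF palindrome at 54 to 47 bases thus lies within the deposited MAFF entry. The marked matches of JUND, FOS and JUN lie before the starts of their entries. Over all tested genes with a window, TGACG was held by 39.8% of genes called higher, 32.4% of genes called lower and 33.6% of genes not called in sample against untransfected cells. A match is a string of letters, and no binding was measured.

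Within the FOS class, FOS and FOSL1 moved in opposite directions. FOS (chromosome 14, 75278778 to 75282234, plus strand, hg38) is the founding FOS class gene and a classical early response gene. It had 429 and 338 normalized counts in sample libraries a and b, 413 and 492 in mock libraries, and 1083 and 989 in untransfected libraries. All 4 transfected libraries lay below both untransfected libraries. The means were 383 ± 64.4 in sample, 453 ± 56.4 in mock and 1036 ± 66.4 in untransfected cells (SD, n = 2 each). FOS thus fell to 0.37 of the untransfected mean in sample cells and 0.44 in mock cells. The authors' deposited table gives log2 fold changes of -1.35 (SE 0.18, adjusted p = 1.40e-12) for sample and -1.16 (SE 0.12, adjusted p = 1.26e-19) for mock against untransfected cells. These deposited fold changes are shrunk toward 0.

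FOSL1 (chromosome 11, 65892136 to 65900526, minus strand), also called FRA1, lacks the transactivation domain of FOS and is itself a known target of AP-1. It had 361 and 852 normalized counts in sample libraries, 412 and 461 in mock libraries, and 46.8 and 49.2 in untransfected libraries. Every transfected library was above both untransfected ones. The sample libraries, however, lay on either side of the mock pair. The means were 606 ± 348 in sample, 436 ± 34.6 in mock and 48.0 ± 1.69 in untransfected cells (SD, n = 2 each), which is 12.6 times and 9.10 times the untransfected mean. The authors' deposited table gives log2 fold changes of 3.19 (SE 0.33, adjusted p = 3.86e-21) for sample and 3.09 (SE 0.20, adjusted p = 5.13e-52) for mock against untransfected cells. The spread in the sample group exceeds counting error, since sample library a had 461 FOSL1 reads and library b 207, with 95% exact Poisson intervals of 328 to 395 and 740 to 977 normalized counts, which cover counting error only. The log2 difference between the sample libraries was 1.24, and 1.61% of 12577 genes differed more in that pair. Without sample library a the limma-voom log2 fold change of sample over untransfected cells was 4.13, and without library b it was 2.91.

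FOSL2 (chromosome 2, 28392912 to 28414649, plus strand), also called FRA2, was the most abundant FOS class gene in every library. It had 3326 and 3949 normalized counts in sample libraries, 3240 and 3057 in mock libraries, and 5360 and 5788 in untransfected libraries. The transfected libraries were all below the untransfected ones, with means of 3638 ± 440.0, 3149 ± 130.0 and 5574 ± 302 (SD, n = 2 each) in sample, mock and untransfected cells. The authors' deposited table gives log2 fold changes of -0.62 (SE 0.12, adjusted p = 3.83e-06) for sample and -0.80 (SE 0.08, adjusted p = 1.53e-24) for mock against untransfected cells. FOSL2 is overlapped by FLJ31356 on the opposite strand and AC104695.3 on the same strand in GENCODE 29, and reads of overlapping genes may not be separable here. FOSB (chromosome 19, 45467995 to 45475179, plus strand), another early response gene, was near the bottom of the family. It had 54.0 and 74.1 normalized counts in sample libraries, 58.1 and 57.5 in mock libraries, and 81.2 and 102 in untransfected libraries. Both transfected pairs lay below the untransfected pair, as did 36.8% of all genes in sample and 40.2% in mock cells, and the sample pair enclosed the mock pair. In the authors' deposited table the log2 fold changes of -0.48 (SE 0.37, adjusted p = 0.328) for sample and -0.59 (SE 0.29, adjusted p = 0.0770) for mock against untransfected cells did not pass. Limma-voom on the recovered counts called 9 members in each comparison, beside 50.6% of genes in sample and 59% in mock against untransfected cells. FOSB was the member added, at -0.65 (adjusted p = 0.0450) for sample and -0.66 (adjusted p = 0.0238) for mock against untransfected cells. ERCC1, which overlaps FOSB on the opposite strand, was called higher in the authors' deposited table, by 0.35 for sample and 0.53 for mock against untransfected cells on the log2 scale. The libraries were made with a directional kit per the labels, while the strand setting used in counting is not given in the sources used here.

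Within the JUN class, JUNB was higher and JUND lower, and JUN did not pass. JUN (chromosome 1, 58780791 to 58784113, minus strand, a single exon) is the founding JUN class gene. It had 7158 and 7272 normalized counts in sample libraries, 7624 and 8067 in mock libraries, and 8070 and 7912 in untransfected libraries. The mock libraries overlapped the untransfected ones, and the sample libraries lay below both pairs. The means were 7215 ± 80.1 in sample, 7846 ± 313 in mock and 7991 ± 112 in untransfected cells (SD, n = 2 each). In the authors' deposited table the log2 fold change was -0.15 (adjusted p = 0.223, 95% interval -0.33 to 0.04) for sample and -0.01 (adjusted p = 0.929, 95% interval -0.14 to 0.12) for mock against untransfected cells. These intervals leave room for changes of up to about those sizes. With limma-voom and TMM scaling JUN passed in sample against untransfected cells, at -0.20 (adjusted p = 0.0291).

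JUNB (chromosome 19, 12791496 to 12793311, plus strand, a single exon) encodes a JUN class protein that is a weaker activator than JUN on many promoters. It had 1085 and 1359 normalized counts in sample libraries, 1130 and 1312 in mock libraries, and 771 and 778 in untransfected libraries. All transfected libraries were above the untransfected ones, and the sample pair enclosed the mock pair. The means were 1222 ± 194 in sample, 1221 ± 129 in mock and 774 ± 5.43 in untransfected cells (SD, n = 2 each), 1.58 times the untransfected mean in each transfected group. The authors' deposited table gives log2 fold changes of 0.62 (SE 0.16, adjusted p = 0.000461) for sample and 0.67 (SE 0.11, adjusted p = 7.43e-09) for mock against untransfected cells. HOOK2 overlaps JUNB on the opposite strand and was called lower in the authors' deposited table, by -0.996 for sample and -0.77 for mock against untransfected cells on the log2 scale.

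JUND (chromosome 19, 18279694 to 18281656, minus strand, a single exon) is the JUN class gene known for steady expression in resting cells. It had 956 and 1182 normalized counts in sample libraries, 835 and 956 in mock libraries, and 2127 and 2336 in untransfected libraries. No transfected library came near the untransfected pair. The means were 1069 ± 160 in sample, 895 ± 86.0 in mock and 2231 ± 148 in untransfected cells (SD, n = 2 each), which is 0.48 and 0.40 of the untransfected mean. The authors' deposited table gives log2 fold changes of -1.06 (SE 0.15, adjusted p = 1.09e-11) for sample and -1.29 (SE 0.10, adjusted p = 4.96e-36) for mock against untransfected cells.

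ATF3 and BATF3 rose in both transfected groups. They lie 65639 bases apart on chromosome 1, on opposite strands. ATF3 (212608628 to 212620777, plus strand), a stress-induced gene whose protein represses many promoters as a homodimer, had 1455 and 1231 normalized counts in sample libraries, 1244 and 1415 in mock libraries, and 637 and 595 in untransfected libraries. The transfected libraries were all above the untransfected pair, with means of 1343 ± 158 in sample, 1330 ± 121 in mock and 616 ± 29.4 in untransfected cells (SD, n = 2 each). The authors' deposited table gives log2 fold changes of 1.11 (SE 0.15, adjusted p = 1.48e-11) for sample and 1.11 (SE 0.11, adjusted p = 1.12e-22) for mock against untransfected cells. The 3 deposited entries of ATF3 share nearly all reads, so its isoforms could not be compared. BATF3 (212686417 to 212699985, minus strand), a bZIP factor best known for its role in dendritic cells, had 690.0 and 597 normalized counts in sample libraries, 637 and 726 in mock libraries, and 214 and 284 in untransfected libraries. Both transfected pairs were above the untransfected pair and overlapped each other, with means of 644 ± 65.7 in sample, 681 ± 63.2 in mock and 248.7 ± 49.4 in untransfected cells (SD, n = 2 each). The authors' deposited table gives log2 fold changes of 1.32 (SE 0.21, adjusted p = 7.17e-09) for sample and 1.44 (SE 0.16, adjusted p = 3.62e-19) for mock against untransfected cells.

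MAFF (chromosome 22, 38201932 to 38216511, plus strand) had the largest relative rise in mock cells of any member and, after FOSL1, in sample cells. It had 3470 and 2973 normalized counts in sample libraries, 3637 and 4052 in mock libraries, and 374 and 383 in untransfected libraries. Each transfected library was several times the untransfected ones, and both sample libraries were below both mock libraries. The means were 3221 ± 351 in sample, 3844 ± 293 in mock and 379 ± 6.96 in untransfected cells (SD, n = 2 each), 8.51 times and 10.2 times the untransfected mean. The authors' deposited table gives log2 fold changes of 3.04 (SE 0.14, adjusted p = 4.97e-104) for sample and 3.33 (SE 0.10, adjusted p = 2.85e-260) for mock against untransfected cells. PLA2G6, on the opposite strand over part of MAFF, was called lower in the authors' deposited table, by -1.03 for sample and -1.09 for mock against untransfected cells on the log2 scale.

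**Figure D2:**
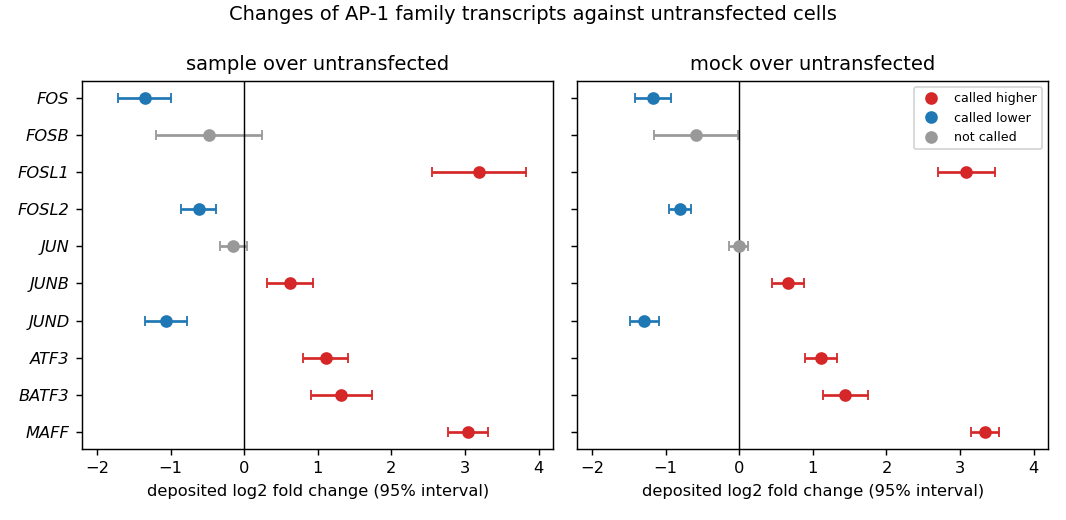
Deposited log2 fold changes of the 10 members with 95% intervals, sample over untransfected at left and mock over untransfected at right, coloured by call. MAFF and FOSL1 stand near 3, ATF3, BATF3 and JUNB between 0.6 and 1.5, and FOS, FOSL2 and JUND below 0 in both panels, while the intervals of JUN cross 0.

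The make-up of the FOS class RNA differed between transfected and untransfected cells. On the scale of normalized counts per kilobase of transcript, FOSL1 held 23.8 ± 9.44% of the FOS class in sample, 20.5 ± 1.40% in mock and 1.49 ± 0.014% in untransfected cells (SD, n = 2 each). FOS held 12.6 ± 4.53%, 16.5 ± 1.87% and 24.9 ± 2.24% in the same groups, so that on this scale FOSL1 stood above FOS in all 4 transfected libraries and below it in both untransfected libraries. That order in transfected cells depends on the division by length. In normalized counts not divided by length, FOSL1 held 8.65% and FOS 10.3% of the class in sample library a, and 16.4% and 6.48% in sample library b. In mock library a they held 9.99% and 10.01%, and in mock library b 11.3% and 12.1%. FOSL2 held most of the class in every group, with 62.5 ± 4.93% in sample, 61.8 ± 3.24% in mock and 72.3 ± 2.05% in untransfected cells. FOSB held 1.19%, 1.24% and 1.29%. The FOS class sum was 1470 ± 293 in sample, 1276 ± 14.2 in mock and 1931 ± 49.9 normalized counts per kilobase in untransfected cells, and here too the sample libraries differed, at 1263 for a and 1677 for b. In the JUN class, JUNB held 19.6 ± 1.88% in sample, 19.1 ± 0.87% in mock and 10.6 ± 0.054% in untransfected cells, and JUND held 16.7 ± 1.45%, 13.7 ± 0.49% and 29.7 ± 1.61%. The order of JUNB and JUND thus differed between the transfected and the untransfected groups, on this scale and in counts not divided by length. JUN itself held 63.6 ± 3.32%, 67.2 ± 1.36% and 59.7 ± 1.56%. The shares are given as a description and were not tested. They are shares of RNA, and protein was not measured.

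**Figure D3:**
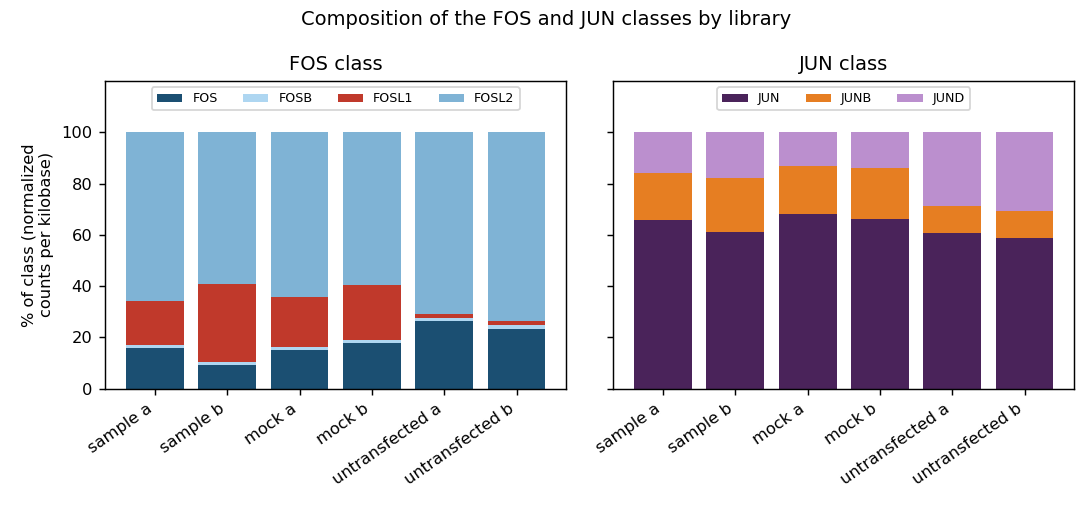
Share (%) of each gene in the per-kilobase normalized counts of the FOS class (left) and the JUN class (right), a stacked bar for each library. FOSL1 takes 17.1% to 30.5% of the FOS class in the transfected libraries and about 1.5% in the untransfected ones, and JUND takes more of the JUN class than JUNB in the untransfected libraries only.

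Ranked per kilobase in sample cells, JUN led with 2171 ± 24.1, followed by MAFF with 1362 ± 149 and FOSL2 with 911 ± 110 (SD, n = 2 each). JUNB, ATF3, BATF3 and JUND came next, between 574 and 673, and each overlapped its neighbour over libraries. FOSL1 followed at 363 ± 208, FOS at 178 ± 29.9 and FOSB at 17.5 ± 3.88. In mock cells JUN (2361), MAFF (1625) and FOSL2 (789) again led, BATF3, JUNB and ATF3 overlapped between 655 and 695, and JUND (481), FOSL1 (261), FOS (210.1) and FOSB (15.8) followed without overlap. In untransfected cells the order was JUN (2405), FOSL2 (1397), JUND (1198), FOS (481), JUNB (426), ATF3 (303), BATF3 (254), MAFF (160.0), FOSL1 (28.7) and FOSB (24.97), with no overlap of neighbours. MAFF was second in both transfected groups and eighth in untransfected cells. The ranges of FOSL1 and FOSB in untransfected cells nearly touched.

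Between sample and mock cells, which differ in plasmids but share the transfection, no member was called in the authors' deposited table. All 10 adjusted p-values there were 0.9999, with deposited log2 fold changes from -0.19 (MAFF, unadjusted p = 0.0671) to 0.17 (JUND). The background was 10 called of 15285 tested genes (0.0654%). Of the 20597 genes with a deposited p-value, 297 (1.44%) had an unadjusted p under 0.05. Since the deposited values of this comparison are strongly shrunk, the width of what could be seen is given from limma-voom on the recovered counts, which called 0 of 14894 genes and gave 644 an unadjusted p under 0.05. JUN had a log2 fold change of -0.12 (95% interval -0.28 to 0.03) for sample over mock cells, FOSL2 0.17 (-0.04 to 0.38) and ATF3 0.07 (-0.17 to 0.31), so that larger differences than these bounds lay outside the intervals. JUNB had -0.07 (-0.33 to 0.20), JUND 0.19 (-0.09 to 0.47), BATF3 -0.02 (-0.34 to 0.30) and FOS -0.14 (-0.48 to 0.20). FOSB at 0.01 (-0.58 to 0.59) and FOSL1 at 0.04 (-0.55 to 0.64) had the widest intervals. For MAFF the interval of -0.43 to -0.01 around -0.22 lay below 0, with an unadjusted p of 0.0392 and an adjusted p of 0.960 by limma-voom. The groups did not overlap for 3 members, 1 higher and 2 lower in sample cells, beside 34.3% of all genes (15.2% higher, 19.1% lower). FOSL1 depended on the library. Without sample library a it was called higher in sample than in mock cells by limma-voom, at 0.98 (adjusted p = 0.00217), and without library b it was not, at -0.26 (adjusted p = 0.997). In those fits the lone sample library is taken to vary like the other groups, and 5.65% of genes were called without library a but 0.0261% without library b.

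**Figure D4:**
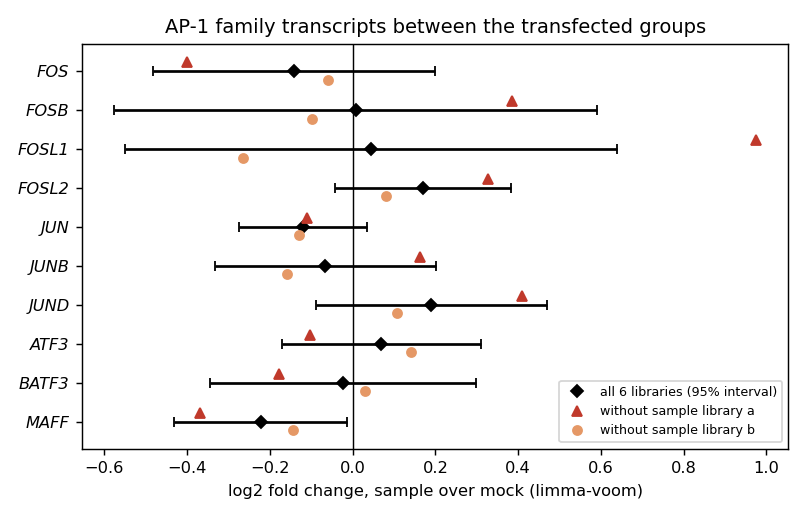
Limma-voom log2 fold changes of sample over mock cells for the 10 members, with 95% intervals from all 6 libraries and the estimates without sample library a (triangles) or b (circles). FOSL1 runs from -0.26 to 0.98 according to which sample library is left out, and MAFF is the only member whose interval lies wholly below 0.

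Other bZIP genes, the possible partners and competitors of AP-1, were also called often. In sample against untransfected cells 11 of 27 were higher and 5 lower (59.3% called), and in mock against untransfected cells 15 of 27 were higher and 5 lower (74.1%). Over all tested genes 37.3% were called in the first of these comparisons and 50.9% in the second. Their median log2 fold changes were 0.26 and 0.29, beside medians near 0 over all genes. MAF, a large MAF factor, had 132 and 136 normalized counts in sample libraries, 117 and 128 in mock libraries, and 1231 and 1420 in untransfected libraries. Its fall was opposite to the rise of its small relatives MAFF and MAFK. In the authors' deposited table MAF had log2 fold changes of -3.19 (SE 0.19, adjusted p = 2.68e-59) for sample and -3.36 (SE 0.14, adjusted p = 2.43e-123) for mock against untransfected cells. MAFK averaged 5304 ± 577 in sample, 6144 ± 146 in mock and 3382 ± 58.7 in untransfected cells, and was called higher. BACH2, a repressor that pairs with small MAF proteins, averaged 117.7 ± 38.3, 95.3 ± 3.62 and 334 ± 31.9, and was called lower. JDP2, a repressor that pairs with JUN, averaged 950.2 ± 100.3, 651 ± 73.4 and 1584 ± 180.5 and was also called lower. XBP1, the most abundant of the list not called, averaged 4716 ± 482, 4328 ± 363 and 4077 ± 173.

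Kinases upstream of AP-1 and the SRF factors that act on the FOS promoter were called about as often as all genes. In sample against untransfected cells 9 of 34 were higher and 3 lower (35.3%), and in mock against untransfected cells 12 were higher and 5 lower (50%). MAP2K3, which activates p38 kinases, had 1488 and 2853 normalized counts in sample libraries, 1717 and 1864 in mock libraries, and 444 and 484 in untransfected libraries. Its sample libraries differed in the same direction as those of FOSL1, with library b above library a. MAP2K6, of the same list but below the mean of 50 set for named genes, went the other way. In the authors' deposited table its log2 fold changes were -3.16 (SE 0.49) for sample and -3.87 (SE 0.47) for mock against untransfected cells, both called lower. ELK3, a ternary complex factor that works with SRF, averaged 3035 ± 639 in sample, 3032 ± 85.5 in mock and 1030 ± 1.91 in untransfected cells and was called higher. MAP2K1, a MAP kinase kinase, averaged 2713 ± 412, 3374 ± 91.1 and 1442 ± 15.8 and was called higher, while MRTFB, an SRF coactivator, averaged 426 ± 107, 331 ± 19.4 and 639 ± 5.35 and was called lower.

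Genes known as AP-1 targets were mostly higher in transfected cells. In sample against untransfected cells 17 of 26 tested were higher and 1 lower (69.2%), with a median log2 fold change of 1.20, and in mock against untransfected cells 22 of 28 were higher and 3 lower (89.3%), with a median of 1.58. Over all tested genes 37.3% were called in sample and 50.9% in mock against untransfected cells, and the median was near 0 in both. MMP3, the protease stromelysin, had 1407 and 1161 normalized counts in sample libraries, 2244 and 1978 in mock libraries, and 20.8 and 19.96 in untransfected libraries. In the authors' deposited table its log2 fold changes were 5.62 (SE 0.23, adjusted p = 7.16e-124) for sample and 6.47 (SE 0.20, adjusted p = 2.16e-237) for mock against untransfected cells. The protease MMP9 averaged 719 ± 49.96 in sample, 1264 ± 146 in mock and 74.7 ± 0.88 in untransfected cells. The chemokine CXCL8 averaged 1086 ± 308, 2348 ± 311 and 91.4 ± 12.3. The cytokine IL11 averaged 1284 ± 109, 1717 ± 120 and 154 ± 6.77, and all of these were called higher in both transfected groups. LIF, the most abundant target not called, averaged 2611 ± 117, 2895 ± 255 and 2537 ± 610. Of the targets, 3 of 27 tested were called lower in sample than in mock cells in the authors' deposited table (11.1%, beside 0.0654% of all tested genes). These were CXCL8 at -0.69 (adjusted p = 3.63e-05), MMP9 at -0.55 (adjusted p = 0.00957) and MMP3 at -0.51 (adjusted p = 0.0153). Limma-voom called none of the list in that comparison, where it called 0 of 14894 genes. The list rests on general knowledge, many of its genes are also targets of NF-kB, and it was drawn up with results of these data known.

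**Figure D5:**
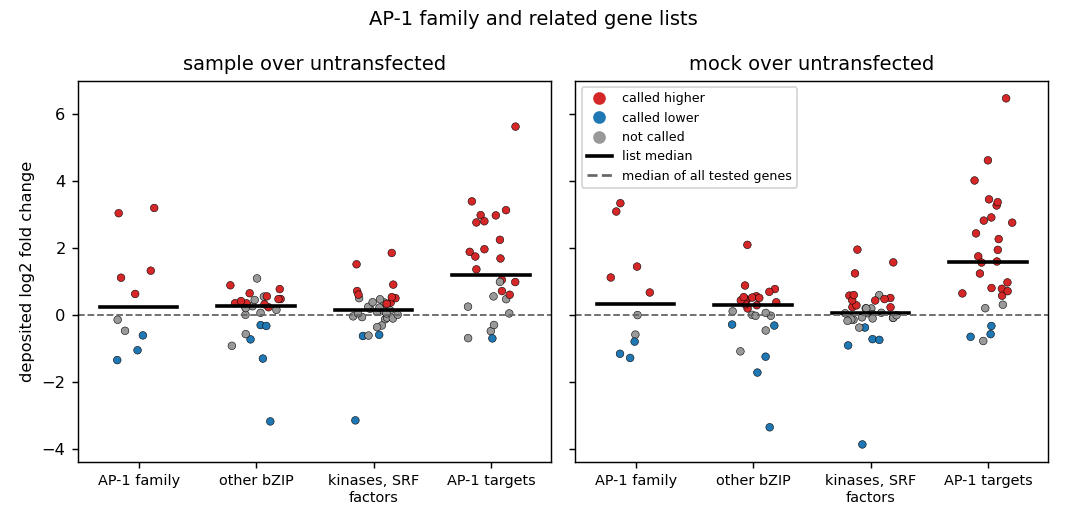
Deposited log2 fold changes of the AP-1 family and 3 related lists, sample over untransfected at left and mock over untransfected at right, a point for each tested gene and a bar for each list's median. The medians of the AP-1 targets are 1.20 and 1.58, while those of the kinases and SRF factors are 0.13 and 0.05.

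Genes whose pattern over the 6 libraries was closest to each called member were taken by Euclidean distance of log2(normalized count + 1) from the untransfected mean, among 12567 genes. For MAFF these were IL11 (0.22) and FOXD1 (0.29), and for FOSL1 they were FGF5 (0.76) and GABBR2 (0.97), the farthest matches of any member. FOS was near NUDT6 (0.17), and FOSL2 was nearest to ARHGAP35 (0.065) and FBXL20 (0.095). JUNB was nearest to ARF1 (0.058) and YARS1 (0.068), and JUND to TTC28 (0.11) and AIF1L (0.16). ATF3 was nearest to ZNF485 (0.16) and TPD52L2 (0.18), and BATF3 to RYR2 (0.21) and N4BP3 (0.28). Among the members themselves the closest pairs were FOSB with FOSL2 (0.36), ATF3 with BATF3 (0.72) and FOS with JUND (0.75), and the farthest was FOS with FOSL1 (9.39).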

How the data were processed

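RNA was measured in 6 libraries of U2OS 2-6-3 cells, grouped by the transfection named in the labels. The submitters' processing notes name Bowtie, STAR, DESeq2 and hg38, while neither versions nor the counting step is given in the sources used here. Per the file headers, each of 3 deposited tables compares 2 groups and holds 40029 RefSeq entries with a mean signal, which is in normalized counts. Per the file headers it also holds the authors' log2 fold change with its standard error, a Wald score, an adjusted p and a p-value. Because every deposited mean signal adds up whole counts scaled by size factors, the counts were solved by lattice reduction, and all 30527 entries with reads fitted the tables (relative tolerance 1e-14). Which library has which replicate number is not known. Counts were divided by median-of-ratios size factors, and levels between genes by exon length in GENCODE 29 within the deposited interval. Symbols were matched for 99.2% of entries, and deposited starts were taken as counted from 0.

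The deposited tables hold no raw counts, so the authors' adjusted p is the main result and edgeR was not run. Limma-voom (limma 3.58.1, R 4.3.3) on all 6 libraries, for genes with a mean of at least 10, was an alternative, tested on simulated data. The simulated libraries all had the same spread beyond counting error, so the wider spread of the sample pair was not tested. Scripts used Python 3.11.15, pandas 2.3.3, numpy 2.4.6, matplotlib 3.10.9 and scipy 1.17.1. All members are named, and from each other list the 4 called genes with the largest change in mock against untransfected cells and a mean of at least 50, the most abundant gene not called, and the 2 genes nearest to each called member. A few genes these rules select are not reported here. Members and lists were chosen with earlier results of these data known. Promoters are from RefSeq. Alternatives changed the threshold, multiple-test adjustment, filter, entry, centring, scaling, test and libraries kept.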

Additional observations from a re-analysis of the deposited data

How the results depend on the processing

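Among the recomputed log2 fold changes of the members, 349 kept their side of the threshold and 11 newly passed it, all for FOSB, JUN or FOSL1. No called value changed sign. For FOSL1 in sample over mock cells, the limma-voom log2 fold change was 0.98 without sample library a and -0.26 without sample library b. Counts of members called in fits with 1 library left out are not given, since 1 group then has a single library. At an adjusted p under 0.01, 8 of 27 other bZIP genes were called in sample against untransfected cells, beside 16 at 0.05. Over all tested genes 28.2% were called at 0.01, so the list was then near that share. In mock against untransfected cells 18 of 27 were called at 0.01, beside 42.9% of all tested genes. With limma-voom 0 AP-1 targets were called in sample against mock cells, beside 3 in the deposited table. Limma-voom called 0 of all 14894 genes there, so this is not particular to the targets. Over all genes limma-voom called 59% in mock and 50.6% in sample against untransfected cells, with all 6 libraries kept. Whether the members were called more often than other genes was not tested. Of 21 shares of a class, 19 moved by more than the spread between libraries when counts were not divided by length. FOSL1 then held 12.5% in sample, 10.7% in mock and 0.71% in untransfected cells, and FOS 8.38%, 11.1% and 15.4%, so that FOS was above FOSL1 in mock cells. No paired analysis was possible because the recovered libraries carry no replicate number. With 2 libraries a group and 9579278 reads in sample library b, small differences between sample and mock cells were not detectable, least of all for FOSL1 and FOSB, whose intervals were widest.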
